A study of Mus musculus with 2 samples.

Results

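Scavenger receptors are surface proteins with which macrophages take up modified lipoproteins, dying cells, bacteria, haemoglobin and matrix fragments. The values of 10 such genes, Cd36, Msr1, Marco, Scarb1, Olr1, Stab1, Stab2, Cd163, Cd5l and Scara5, are described here in peritoneal macrophages with and without MeXis. The genes were found by their name on the array, which gave 19 probes, and they are 10 of the 37008 gene names on it. All 19 probes are shown, including 1 whose spot signal the scanner software marked as an outlier.

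The cells came from the peritoneal cavity of wild-type (WT) mice and of mice null for the long noncoding RNA MeXis. The strain is given as bl6 for both genotypes. Both arrays carried total RNA from cells in DMEM with serum, pooled from 3 samples per genotype, and no ligand or other treatment is named in the labels. How the cells were elicited, the age of the mice and the extent of the MeXis deletion are not given in the sources used here. With 1 array per genotype there was no replicate array and no test, and every difference is between these 2 pools. In such pools, fewer cells of a type and less RNA per cell cannot be told apart.

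Scavenger receptors are named for what they bind rather than for a shared fold. Class A receptors (Msr1, Marco and Scara5) carry a collagen-like stalk, class B receptors (Cd36 and Scarb1) cross the membrane at both ends, Olr1 is a C-type lectin, and the stabilins (Stab1 and Stab2) are long receptors built from fasciclin and EGF-like repeats. Cd163 and the secreted protein Cd5l are built from scavenger receptor cysteine-rich domains. In macrophages, uptake of modified low-density lipoprotein (LDL) through Cd36 and Msr1 is not shut off by a full cholesterol store, and so leads to foam cells, whereas Abca1 and Abcg1 carry cholesterol out again.

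Several receptors were read by more than 1 probe, and the sequences of 3 probes show what was read. Each probe is 60 bases long, and those below are printed 5′ to 3′ on the transcript's strand. The Msr1 probe at base 624 of its transcript (chromosome 8, 40709296 to 40709355, minus strand, mm9) is listed for more than 1 RefSeq transcript of the gene. The other Msr1 probe, at base 3231 (chromosome 8, 40689158 to 40689217, mm9), is listed for transcript variant 1 only among RefSeq transcripts. The printed Scarb1 probe, at base 986 (chromosome 5, 125777604 to 125777663, minus strand, mm9), is listed for transcript variant 3, and the brighter one, at base 2435 (chromosome 5, 125757483 to 125757542, mm9), for variant 1 and a further RefSeq transcript. In the Scara5 probe (chromosome 14, 66357280 to 66357339, plus strand, mm9) the capitals mark 6 GGN triplets, each 9 bases after the last, the glycine codons of a collagen-like repeat. That spacing, searched on the probe strand in any frame, was found in 9 of 56605 non-control probes (0.0159%).
Msr1, base 624: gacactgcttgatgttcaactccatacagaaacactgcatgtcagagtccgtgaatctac
Scarb1, base 986: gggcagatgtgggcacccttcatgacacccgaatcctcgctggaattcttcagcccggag
Scara5, base 1285: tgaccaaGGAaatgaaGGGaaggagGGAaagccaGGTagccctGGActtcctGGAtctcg

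Values are processed signals, the background-subtracted and surface-corrected intensity of a spot, with the scanner software's error. A difference is log2 of MeXis null minus WT after each array was scaled to its 75th percentile over spots above background on both arrays (3904 on WT and 4099 on MeXis null). A spot called above background is one that the software marks as well above it. The lowest such signal was 12.1 on WT and 27.3 on MeXis null, so a dim receptor was called more readily on WT. Across 285 probes printed about 10 times, repeated spots gave differences with a median SD of 0.47. Their 95% range, 0.91 or 1.88-fold, was therefore taken as the spread of a single spot, and a gene was called at 2-fold. The median scanner error of those probes was 0.20, against 0.27 for Marco, a dim receptor. Whether dim spots spread more than this range was not tested. None of the 59305 non-control spots was saturated on either array (0 on each).

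Of the 10 receptors, 7 had a probe above background on both arrays, and Olr1, Cd163 and Scara5 had none on either. At 2-fold, 2 of the 7 were lower in MeXis null (Scarb1 and Stab2) and 1 was higher (Stab1). Over the 15576 genes that could be measured on both, the shares past 2-fold were 4.52% lower and 7.79% higher. At 1.5-fold, 3 of the 7 receptors were lower and 2 higher, against 13.6% and 19.4% of all genes. The median difference of the 7 was -0.53, the value of Cd36, against 0.06 over all genes. Its direction turned with normexp background correction, where it was 0.067. With the software's surface factor undone it kept its sign but shrank to -0.041. With so few genes these counts describe the members and give no comparison with other genes.

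**Figure D1:**
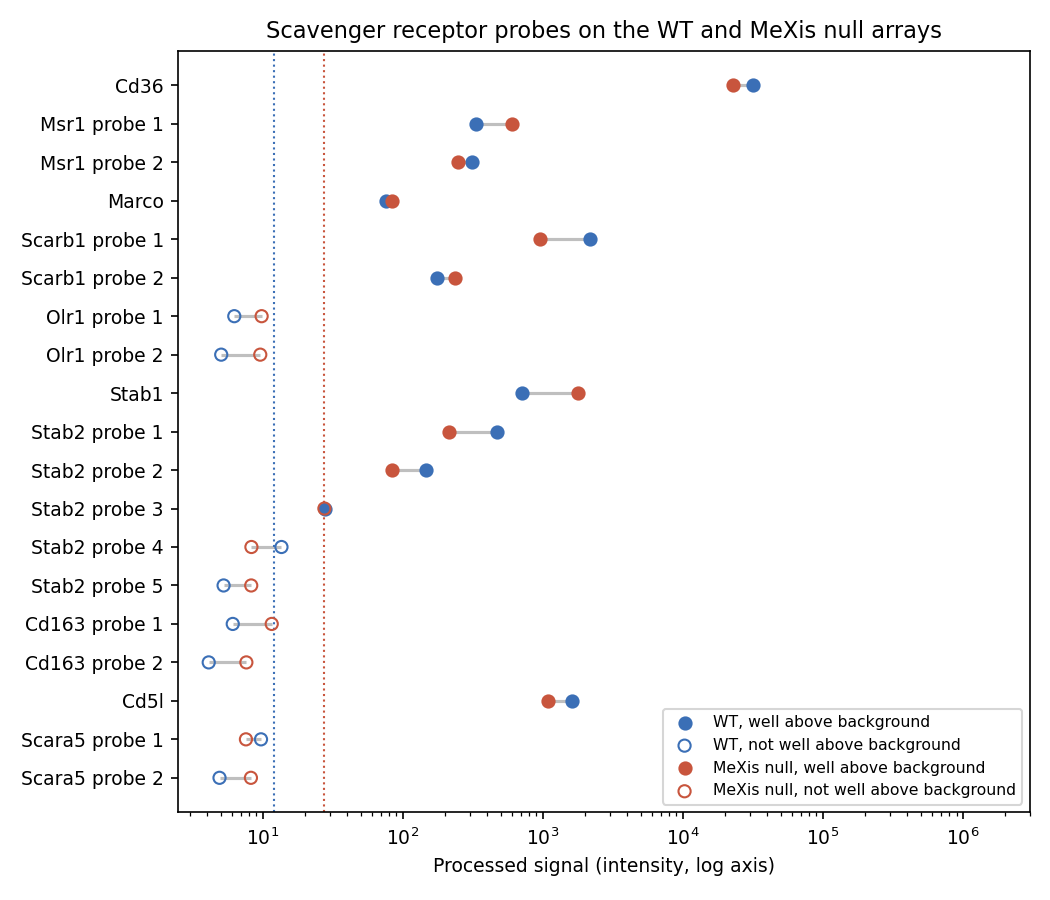
Processed signal (log axis) of all 19 probes of the 10 receptor genes on the WT and MeXis null arrays, with open circles for spots not well above background and dotted lines at the lowest signal well above background on each array. Stab1 and the brighter Msr1 probe lie to the right on MeXis null, the brighter Scarb1 probe and 2 Stab2 probes on WT, and the Olr1, Cd163 and Scara5 probes stay left of the dotted lines.

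Among the class B receptors, Cd36 differed little and Scarb1 differed by probe. Cd36, which takes up fatty acids and oxidised LDL, read 31564 ± 2250 (scanner error) in WT cells and 22893 ± 2289 in MeXis null cells (chromosome 5, 17288600 to 17288659, minus strand, mm9). Its scaled difference was -0.53, inside the spread of a single spot, and the WT spot carried the mark for uneven pixels. Before the software's surface correction the mean pixel signal ran the other way, 19957 on WT and 22476 on MeXis null. The software divided the WT spot by a surface factor of 0.631 and the MeXis null spot by 0.980, and with these factors undone the Cd36 difference was 0.10. Its direction therefore depended on the surface correction.

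Scarb1, the receptor that exchanges cholesterol with high-density lipoprotein, read 2189 ± 219 in WT cells and 958 ± 96.3 in MeXis null cells with its brighter probe. That was 2.40-fold lower, a difference of -1.26 with a scanner error of 0.20, and beyond the spread of a single spot. Only 2.25% of spots above background on both arrays had a lower difference. The probe printed above, at base 986, is listed for variant 3, but whether it reads that variant alone was not checked. It read 175 ± 18.0 in WT cells and 237 ± 25.2 in MeXis null cells, a difference of 0.37 that lies within the spread. So the Scarb1 probes pointed in opposite directions, 1.63 apart on the log2 scale. Among 3692 genes with exactly 2 probes above background on both arrays, 5.90% had a gap at least as wide, and the median gap was 0.56. The MeXis null spot of the dimmer probe also carried a mark for an outlying local background level. The median of both probes was -0.45.

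The class A receptors gave smaller differences. Msr1, the macrophage scavenger receptor for acetylated LDL, read 331 ± 33.4 in WT cells and 603 ± 61.0 in MeXis null cells with its variant 1 probe, a difference of 0.80. With the probe shared between transcripts it read 312 ± 31.4 and 248 ± 26.6, a difference of -0.40. Neither exceeded 0.91, and their gap of 1.20 was matched or passed by 15.2% of the genes with exactly 2 probes. Marco, which binds bacteria and particles, read 76.1 ± 8.87 in WT cells and 83.2 ± 12.0 in MeXis null cells, a difference of 0.06 with a scanner error of 0.27. The coordinates given for the Marco probe (chromosome 1, 122371115 to 122371134, mm9) cover 20 of its 60 bases.

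Scara5, a ferritin receptor of stromal and epithelial cells, was not above background with either probe. The collagen-repeat probe printed above read 9.71 in WT cells and 7.58 in MeXis null cells, and the other (chromosome 14, 66382904 to 66382963, mm9) read 4.91 and 8.23. These signals are within or near the noise of each array, so they set no order between the genotypes.

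The stabilins went in opposite directions. Stab1, a receptor of macrophages and sinusoidal endothelium that clears the matrix protein Sparc and modified LDL, read 712 ± 71.4 in WT cells and 1777 ± 178 in MeXis null cells (chromosome 14, 31952288 to 31952347, minus strand, mm9). It was 2.38-fold higher in MeXis null, by 1.25 on the log2 scale, and 95.6% of spots had a lower difference. Stab2, the hyaluronan receptor of sinusoidal endothelium, read 468 ± 47.2 in WT cells and 212 ± 22.2 in MeXis null cells with its brightest probe (chromosome 10, 86303982 to 86304041, minus strand, mm9). It was 2.32-fold lower, a difference of -1.21.

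Of the other four Stab2 probes, the one that lies beside the brightest in the genome (chromosome 10, 86304198 to 86304257, mm9) but far from it on the array read 147 ± 15.5 and 83.8 ± 12.3, a difference of -0.88. It did not reach 2-fold or the spread of a single spot, and had the same direction. A probe for another Stab2 transcript (chromosome 10, 86346171 to 86346230, mm9) was above background on WT only. It read 27.8 ± 5.36 in WT cells and 27.6 ± 9.09 in MeXis null cells. The bound after scaling, at least 1.06-fold lower, is small beside these errors and sets no order between the genotypes. The probe's MeXis null spot carried a mark for an outlying local background level. The 2 remaining probes (chromosome 10, 86381487 to 86381546 and 86455257 to 86455316, mm9) read 13.6 and 5.25 on WT and 8.30 and 8.27 on MeXis null, not above background on either. The Stab2 probes above background on both arrays were thus those at bases 7830 and 8046 of the long transcript.

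Of the cysteine-rich proteins, Cd5l was measured and Cd163 was not. Cd5l, a secreted protein of tissue macrophages also known as AIM, read 1628 ± 163 in WT cells and 1089 ± 109 in MeXis null cells (chromosome 3, 87174823 to 87174882, plus strand, mm9). That was 1.57-fold lower, a difference of -0.65 inside the spread of a single spot. Cd163, the receptor for haptoglobin bound to haemoglobin, read 6.11 and 4.11 on WT and 11.6 and 7.64 on MeXis null with its 2 probes (chromosome 6, 124280484 to 124280543 and 124270436 to 124270495, mm9). Olr1, the lectin-like receptor for oxidised LDL, read 6.26 and 5.05 on WT and 9.82 and 9.60 on MeXis null (chromosome 6, 129435316 to 129435375 and 129437690 to 129437749, mm9). All 4 signals per array were below the lowest signal called above background there, so for both genes a difference was not detectable.

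**Figure D2:**
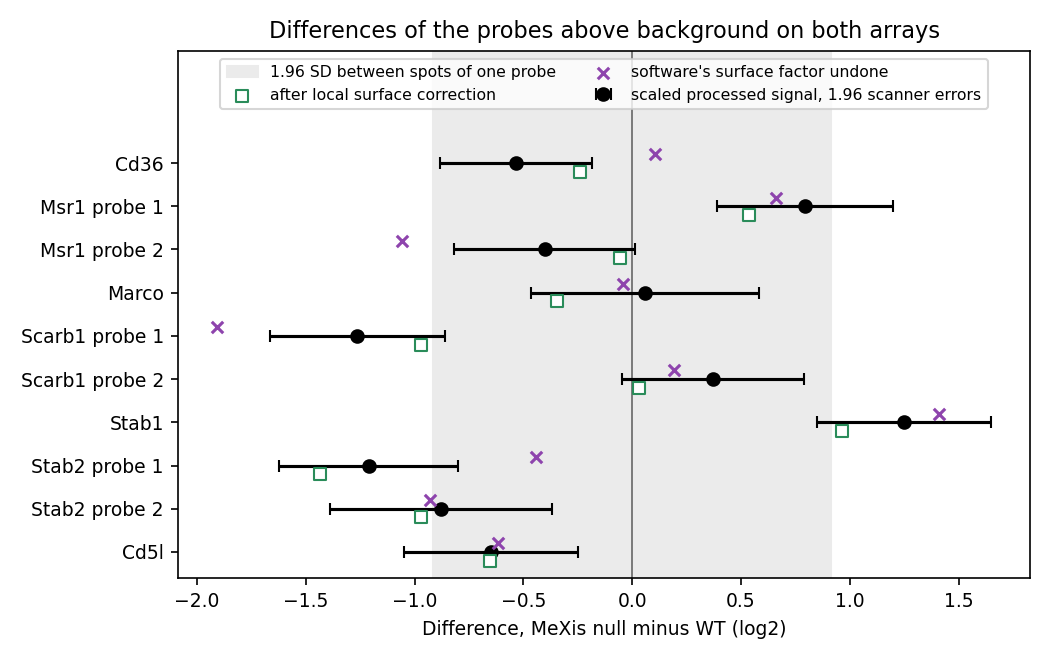
Difference of MeXis null minus WT (log2) for the 10 receptor probes above background on both arrays. Black points are scaled processed signals with bars for the 95% range of the scanner error, open squares the values after local surface correction, crosses the values with the software's surface factor undone, and the grey band is 0.91 on either side of 0. Black points lie outside the band for the brighter Scarb1 probe (-1.26), Stab1 (1.25) and the brightest Stab2 probe (-1.21).

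The values also varied with the place of a spot on the array. The software's surface factors ran from 0.361 to 2.01 over non-control spots on WT and from 0.564 to 1.39 on MeXis null. The brighter Scarb1 probe and the Msr1 probe at base 624 lay on neighbouring rows, 340 and 341, and their factors of 1.21 on WT and 0.771 and 0.769 on MeXis null raised both differences, by 0.65 and 0.66. With the factors undone they were -1.91 and -1.06. The brightest Stab2 probe lay near the upper edge, at row 14, with factors of 0.688 and 1.17 that lowered its difference by 0.77. Undone, it was -0.44, and the second Stab2 probe, at row 326, was at -0.93. With normexp background correction of the mean pixel signal, the Stab2 probes were at -0.36 and -0.47. With the software's surface factor undone, Stab1 was at 1.41 and Cd5l at -0.62.

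A local surface correction subtracted the median difference of the 100 nearest spots above background on both arrays, which lowered the median SD between spots of a probe from 0.47 to 0.33. The neighbours of Scarb1's brighter probe had a median difference of -0.29, and Scarb1 was then at -0.97. For Stab1 the neighbours were at 0.28 and the corrected value was 0.96. Both fell just short of 2-fold but stayed beyond 0.91, the spread of a single spot before this correction. Stab2, at -1.43 with its brightest probe and -0.97 with the second, was the only one of the 7 still called. Receptor probes past 0.91 were 4 after the correction, against 3 before. The 0.91 limit was kept from before the correction, and the lower SD of 0.33 would give a narrower one. Over all genes the shares past 2-fold were then 3.46% lower and 3.65% higher. The Msr1 probes came closer together at 0.54 and -0.06, the dimmer Scarb1 probe was at 0.03, Cd36 at -0.24, Marco at -0.35 and Cd5l at -0.65.

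**Figure D3:**
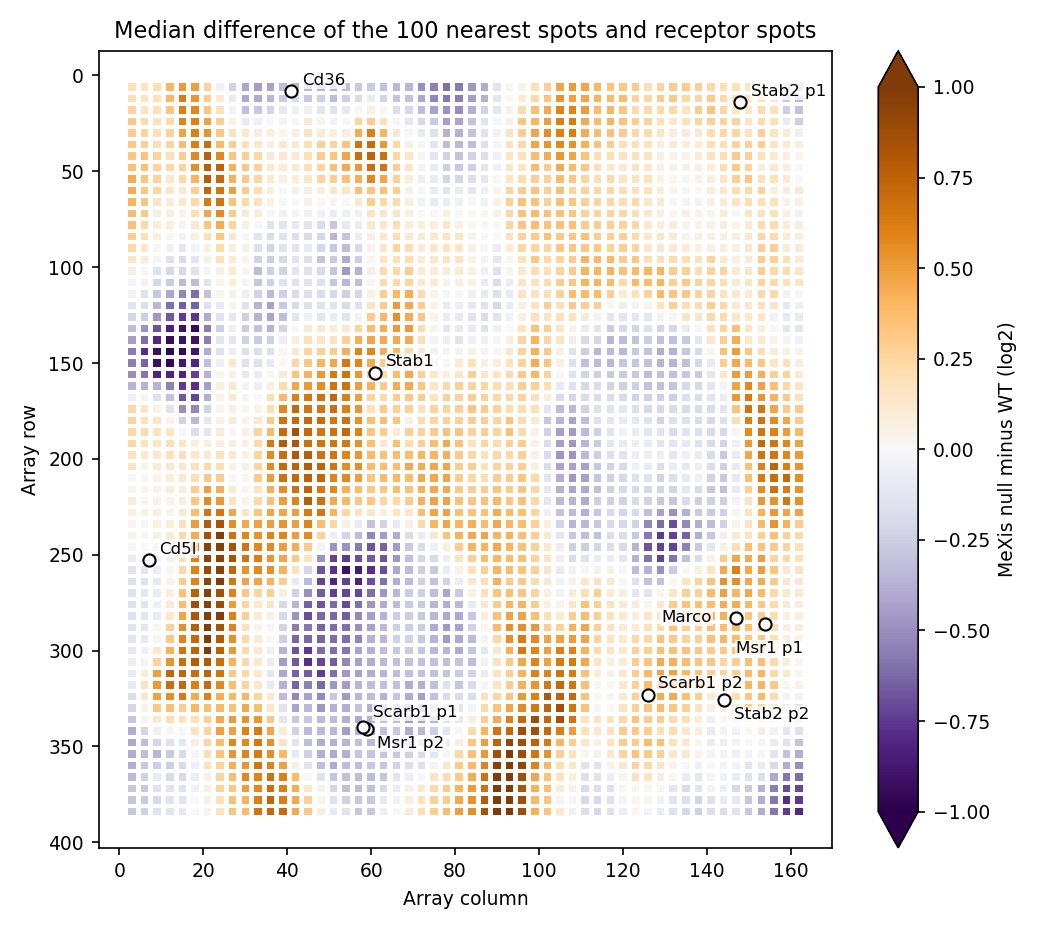
Array layout (column against row) coloured by the median difference (log2, MeXis null minus WT) of the 100 nearest spots above background on both arrays, with the 10 receptor spots above background on both arrays as white circles (p1 is the brighter probe of a gene). The brighter Scarb1 probe and the second Msr1 probe share an area below 0 (-0.29 and -0.35), and Marco (0.41), the second Scarb1 probe (0.34) and Stab1 (0.28) lie in areas above 0.

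Disagreement between probes was common on these arrays. Of 5291 genes with at least 2 probes above background on both arrays, 54.6% had probes of opposite sign. Of the 3 receptors with such probes, Msr1 and Scarb1 were among them and Stab2 was not. The Stab2 gap was 0.33, below the median gap of 0.56 of genes with exactly 2 probes.

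The other scavenger receptors were not lower as a group. Of 15 listed, 11 were measured on both arrays. Scarb2 alone was past 2-fold, and the list's median was 0.42; after local surface correction only Cd6 was past 2-fold, and lower. That median stayed above 0, from 0.25 to 0.49, under all 11 alternatives that give a value per gene. Among these, the series matrix repeats the main values. Scarb2, the lysosomal class B receptor also called LIMP-2, was highest, at 2679 on WT and 6988 on MeXis null. It differed by 1.31, or by 0.77 once corrected for the local surface. Scarf2 followed at 0.83 (0.42 with that correction). The lowest were Cd6 at -0.84 (-1.29 with the correction), a lymphocyte receptor that was dim at 93.3 and 54.6, and the mannose receptor Mrc1 at -0.78, which read 4257 and 2611. Cd5, a lymphocyte gene, was above background on WT only and at least 2.66-fold lower. Megf10, Dmbt1 and Ssc5d were not above background on either array.

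Ligands and partners of the receptors differed in both directions. Past 2-fold were 2 of the 9 measured on the higher side and 1 on the lower side. Their median was 0.18, or -0.08 once the local surface was corrected for. Sparc, the matrix protein cleared by Stab1, read 9304 in WT cells and 41530 in MeXis null cells and was 4.25-fold higher. It differed by 2.09 both before and after the local correction. Tnfsf12, the cytokine TWEAK that Cd163 binds, differed by 1.02, or 0.59 with that correction. Fasn, the fatty acid synthase with which Cd5l has been reported to interfere, was 2.86-fold lower, and the acute-phase protein gene Saa3 differed by -0.51 (-0.89). Haptoglobin (Hp) differed by -0.08 (-0.56) and Apoe by 0.18 (-0.08 with the correction).

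Coreceptors and adaptors went both ways, with 1 of 11 past 2-fold on each side. Tlr2 differed by 1.32 (0.78 after local surface correction), from a spot with an outlier mark, and Tlr6 by 0.98 (0.38). After that correction the only gene past 2-fold on the higher side was Cd81, at 1.25 against 0.29 before. The kinase Syk differed by -1.33, with probes of opposite sign, and the exchange factor Vav1 by -0.95 (-0.67). Pdzk1, the scaffold that holds Scarb1 at the membrane of hepatocytes, was not above background.

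Among transcription factors reported to act on these genes, Cebpb and Nfe2l2 were past 2-fold on the higher side, and the median of the 12 was 0.07. Pparg, the nuclear receptor that drives Cd36, read 14240 in WT cells and 14700 in MeXis null cells, a difference of -0.02 that was 0.44 with the highest of its alternatives, above 0 in 2 of 11. Cebpb differed by 1.68 and Nfe2l2 by 1.18, the latter with probes of opposite sign and at 0.41 after local surface correction. The liver X receptor gene Nr1h3 differed by -0.81 (-0.52 with that correction). Spi1, the macrophage factor PU.1, differed by 0.10.

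Genes that handle what the receptors bring in had a median of -0.01 over 16 measured, with 2 past 2-fold on each side. The fatty acid binding protein Fabp5 (2.44, or 1.49 after local surface correction) and the ferritin heavy chain Fth1 (1.64, or 0.59) were highest. The cholesterol exporters Abcg1 (-1.74, from a spot with an outlier mark) and Abca1 (-1.62) were lowest. Hmox1, which breaks down the haem taken up through Cd163, differed by -0.64.

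**Figure D4:**
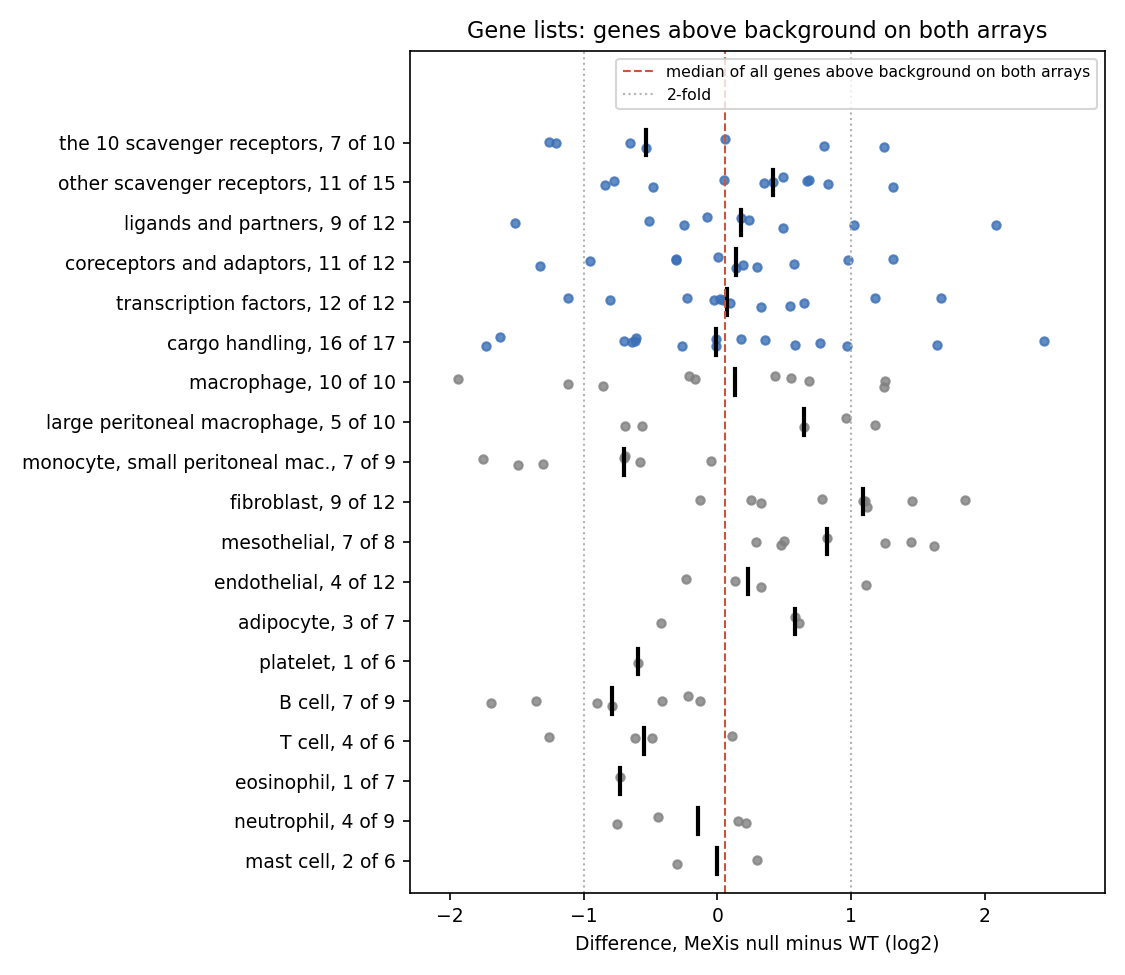
Difference of MeXis null minus WT (log2) for each gene above background on both arrays in the receptor lists (blue) and cell type marker lists (grey), with black bars at list medians, a dashed line at the median of all genes (0.06) and dotted lines at 2-fold. The 7 receptors spread from -1.26 to 1.25 around a median of -0.53, and the other scavenger receptors have a median of 0.42.

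Cell type markers give the setting of these values. All 10 macrophage markers were above background on both arrays (median 0.13, with 2 past 2-fold on each side, among them Lyz2 at 1.25 and Mertk at -1.94). After local surface correction the median was -0.020, 1 was past 2-fold on the higher side and 2 on the lower, Lyz2 was at 0.52 and Mertk at -1.13. Fibroblast markers, 9 of 12 measured, had a median of 1.09 with 5 at least 2-fold higher. After local surface correction the median was 0.66 with 3 at least 2-fold higher. The fibroblast marker Lum, measured in WT cells alone, was lower by at least 3.40-fold. The list's summed signal, as a percent of the array's 75th percentile, was 197% on WT and 335% on MeXis null. Mesothelial markers, 7 of 8, had a median of 0.82 (0.58 after local surface correction) and summed to 21.9% and 50.5%. B cell markers, 7 of 9, had a median of -0.79 (-1.08 with that correction) and summed to 109.8% and 69.3%. Monocyte and small peritoneal macrophage markers, 7 of 9, had a median of -0.70 (-0.92 with that correction). Ccr2 and Cd226, of the same list, were not above background on either array. Among endothelial markers 4 of 12 were measured (median 0.23; sums 175% and 184%), and Cdh5, Tie1, Tek, Emcn, Cldn5 and Lyve1 were not above background on either array. Pecam1 was above it on WT only (at least 2.24-fold lower) and Egfl7 on MeXis null only (at least 2.31-fold higher). Among eosinophil markers, Ear1 (376 on WT, 28.6 on MeXis null) and Ear2 (1475 and 34.3), ribonuclease genes of close sequence, were above background on WT only, at least 13.8-fold and 45.2-fold lower. Siglecf, which eosinophils express, was the only one measured on both arrays, at -0.73. Epx, Prg2 and Ccr3 were not above background on either array, and the list summed to 110.6% on WT and 40.2% on MeXis null. The mast cell marker Cma1, also measured in WT cells alone, was lower by at least 2.33-fold. Of the other lists 1 to 5 genes were measured on both arrays: large peritoneal macrophage (median 0.65, or 0.41 after local surface correction), T cell (-0.55, or -0.27), neutrophil (-0.14, or -0.40), adipocyte (0.58, or 0.40), mast cell (-0.00, or -0.29) and platelet (-0.59, or -0.26). The adipocyte median before correction is the value of Fabp4, which is also in the cargo handling list. Adipoq, Plin1, Cfd and Cidec were not above background on either array. The platelet value is that of Pf4 alone, and Itga2b, Gp9, Gp1bb, Ppbp and Gp6 were not above background on either array. Whether any of these cells had a part in the receptor differences was not tested.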

How the data were processed

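Total RNA of 1 WT and 1 MeXis null pool was hybridised to one-colour (Cy3) Agilent arrays. Spot intensity in the deposited files is linear. Per the file headers it comes from Agilent Feature Extraction 11.5.1.1, which took off background and divided by a fitted surface factor, and probe positions refer to mm9. Intensity in the deposited series matrix was equal to the processed signal in 62976 of 62976 features (relative tolerance 1e-06; medians 12.9 and 17.0); it had 0 columns without a sample. Well above background were 28463 of 59305 non-control spots on WT (48.0%) and 26257 on MeXis null (44.3%).

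Signals were log2-transformed and scaled to the 75th percentile over spots well above background on both arrays. Spots marked as outliers were kept (305 on WT and 205 on MeXis null). Spots of a probe were averaged, and a gene was read from the probe with the highest mean log2 signal. Other gene names were updated through a RefSeq table (GRCm38.p6; its coordinates were not used; 32994 probes by accession, 10224 by symbol, 520 by synonym, 12867 unchanged). Where only 1 array was above background, the bright value was set against a floor on the dim array, its lowest signal well above background or the probe's own signal if larger, and written as at least N-fold. limma 3.58.1 (R 4.3.3) was used for normexp background correction, and Python 3.11.15 for the rest. Scaling and calling were tested on simulated data.

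The receptors, gene lists and rules were chosen with earlier results of these data known. Named genes are all receptors with every probe, and from each receptor-related list its 2 highest and 2 lowest genes and those with a bound of at least 2-fold. The rule also covers cell type lists and their defining markers at background, but those lists are given mostly by counts. Outside the rule, Hp, Apoe, Cd81, Pparg, Spi1, Hmox1, Pdzk1, Megf10, Dmbt1 and Ssc5d were named after their values were seen. A gene that the rule names is not reported here.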

Additional observations from a re-analysis of the deposited data

How the results depend on the processing

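Stab1, Stab2, Cd5l, Msr1 and Scarb1 kept the sign of their difference under all 11 alternatives that give a value per gene. These alternatives are not independent, since the series matrix repeats the main values. Scaling to the median, to the 75th percentile of all spots or to the spike-in probes only shifts all genes alike. The ranges were 0.96 to 1.41 for Stab1, -1.43 to -0.36 for Stab2, -0.78 to -0.59 for Cd5l, 0.20 to 0.80 for Msr1 and -1.91 to -0.45 for Scarb1. Except for the median over a gene's probes, these are values of the brightest probe. The second Msr1 probe (-1.06 to -0.06) and the second Scarb1 probe (0.03 to 0.37) kept the opposite sign in all 10 alternatives that give a value per probe. The signs given for Msr1 and Scarb1 therefore depend on the choice of probe. Cd36 ran from -0.73 to 0.10 over 10 alternatives (its spot is lost when marked spots are left out) and Marco from -0.35 to 0.07, with its sign kept in 4 of 11. The count of receptors at least 2-fold lower, 2, was 1 with normexp background correction, with local surface correction, with the median over a gene's probes and with the software's surface factor undone, an alternative chosen after seeing the data, and 0 at 3-fold. The count of receptors at least 2-fold higher, 1, was 0 with local surface correction and at 3-fold, and 2 at 1.5-fold. The median of the receptors was 0.067 with normexp and -0.041 with the surface factor undone. The count of all genes at least 2-fold lower, 704, was 1763 with no filter on dim probes, 1064 with the surface factor undone, 2126 at 1.5-fold and 165 at 3-fold. The count of all genes at least 2-fold higher, 1214, was 568 with local surface correction, 6562 with no filter, 789 over signals of at least 100, 3026 at 1.5-fold and 242 at 3-fold. Of the genes called at 2-fold, 63.3% were higher, against 46.4% when scaled to the spike-in probes, 51.3% with local surface correction, 51.8% with loess, 53.2% with normexp, 53.3% with the 75th percentile of all spots and 78.8% with no filter. Spike-in scaling put the median of all genes at -0.07, against 0.06. No paired analysis was possible because each genotype had 1 array. Signal over background limits Olr1, Cd163, Scara5 and 2 Stab2 probes, for which no difference could be measured, and 1 Stab2 probe, which has only a bound.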
